A study of Oryza sativa with 8 samples.

Results

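Among 57258 array features of rice, 36 gave a lower signal in the mhz7 mutant than in wild type (WT) in both tissues and gases. The features are probe sets, each a group of short oligonucleotides that reads 1 transcript or, for some, several. These 36 had no large response to ethylene in the WT. They were selected on the measured differences themselves. A probe set entered if its mean signal over the 8 arrays was at least 200, if mhz7 minus WT on the log2 scale was -0.8 or less (1.74-fold) in root air, root ethylene, shoot air and shoot ethylene, and if ethylene moved it by less than 1 in WT root and in WT shoot. Of 21444 probe sets with a mean signal of at least 200, 56 passed the genotype threshold in all 4 pairs, or 0.261%, and 20 of these left by the limit on the ethylene change. Among those 20, 19 rose and 1 fell with ethylene in WT root or WT shoot, and ETR2, ARGOS and NSHB2 were among them. The rule also left out some named genes and gene families, which removed 0 further probe sets. The genotype differences and the WT ethylene changes are therefore descriptions and were not tested. Where ethylene moved a member by less than 0.8 in a WT tissue, the rule fixed that the genotypes did not overlap there. A lack of overlap over all 8 arrays rests partly on the same gap. It was not counted over the members or over all probe sets. In the other direction, 125 probe sets were higher in mhz7 by 0.8 or more in all 4 pairs.

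Ethylene is a gaseous plant hormone that is perceived by receptors in the endoplasmic reticulum membrane. EIN2 is a membrane protein that acts after the receptors and passes the signal to transcription factors of the EIN3 and EIL family, which switch on ethylene-responsive genes in the nucleus. MHZ7 is a synonym of rice EIN2 in the gene table. In dark-grown rice seedlings ethylene is known to shorten the root and lengthen the coleoptile, so root and shoot respond in different ways.

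The study put 1 array on each combination of genotype, tissue and gas. The WT groups were root in air, root in ethylene, shoot in air and shoot in ethylene, and mhz7, a single mutant line whose lesion the labels do not give, had the same 4 groups. In all 8 groups germination was for 2 days at 37 °C, and seedlings were 3 days old and dark-grown. Ethylene was given at 10 ppm for 8 h at 28 °C, and the comparison groups stayed in air. With 1 array per condition no genotype or ethylene difference has a replicate check. In tissue samples of this kind, fewer cells of a type and less RNA per cell cannot be told apart.

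Between 20237 and 20547 probe sets read above 200 on an array after scaling. Each array was scaled to a trimmed mean of 500, signals under 100 were set to 100 as a floor, and a ratio against a floored signal is given as "at least". EIN2 itself was not lower in the mutant: its signals were 1649, 1064, 859 and 747 in WT root air, root ethylene, shoot air and shoot ethylene, and 2792, 2462, 1532 and 1574 in mhz7, so its transcript level does not check the genotype labels. Of the 3′ probe sets for common control transcripts, 4 differed between genotypes by -0.23 to 0.23 over 16 comparisons. The 3′ to 5′ signal ratio, a measure of RNA or labelling quality, was 6.34 to 8.26 for actin on WT arrays and 6.81 to 13.5 on mhz7 arrays, and for GAPDH 4.71 to 6.70 and 5.92 to 9.08. The ratio was higher in mhz7 in each of the 4 pairs for both transcripts, and its part in the lower member signals was not tested. Signals of a tissue's markers on the other tissue's arrays bear on a few members and are given with them.

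Of the 36 members, 27 matched 1 gene each and stood for 26 genes, 1 was shared by LOC4352472 and LOC4352471, and 8 had no gene in the annotation and are called by probe set name. Only MT4C and OC-X had a gene name beyond a locus number, so a role is given for these alone. For 12 members the probe set name carried a suffix (a in 2, s in 5, x in 5) that marks probes matching several transcripts, and those signals may hold more than 1 transcript. Over the 8 arrays the members' mean signals ran from 215.7 to 15663.

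MT4C encodes a metallothionein, a small cysteine-rich protein that binds metal ions. Its signal was 40479.7 in WT root air, 40811 in WT root ethylene, 3169.5 in WT shoot air and 5323 in WT shoot ethylene. In mhz7 the same 4 groups read 22809, 11274, 905 and 536. Within each tissue both WT arrays lay above both mhz7 arrays, which the rule fixed here. The gap was wider in ethylene than in air and wider in shoot than in root. The mutant was 1.77-fold lower in root air, 3.62-fold in root ethylene, 3.50-fold in shoot air and 9.94-fold in shoot ethylene. MT4C is mainly a root transcript here, and its shoot signal was 7.83% and 13.0% of its root signal in WT air and ethylene and 3.97% and 4.75% in mhz7. The root markers fixed for this check (TIP2-1, NAS1, NAS2, PIP2-4 and MT4A found of 6, with RCc3 not found by name) summed on the shoot arrays to 4.92% and 3.29% of their root level in WT and 3.52% and at most 1.33% in mhz7. That sum was also lower in mhz7, by -0.81 in shoot air and -1.80 in shoot ethylene on the log2 scale with 1 marker of the 5 at the floor in mhz7 shoot ethylene, and -0.33 and -0.49 in root. Single markers lay apart. In shoot air and ethylene MT4A differed by -0.10 and -0.22, NAS1 by -1.48 and -2.08 and PIP2-4 by -1.36 and -2.80. TIP2-1 differed there by -0.35 and -2.61, and NAS2 by -1.26 and -1.47. The part of root transcripts on shoot arrays in the MT4C difference was not tested.

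The other metallothionein genes did not share the pattern. Of 7 measured (MT1A, MT1B, MT2A, MT2B, MT2C, MT4A and MT4C), 1 was lower by 0.8 or more in all 4 pairs. MT4A, which stands 2 places from MT4C in the gene table, differed by -0.29, -0.61, -0.10 and -0.22. MT1B differed by -0.43 and -1.49 in root and by 1.19 and 1.43 in shoot, so its direction turned between tissues. MT1A differed by -0.23 and -0.09 in root and by 0.54 and 1.32 in shoot.

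OC-X encodes oryzacystatin X, of the cystatin family of cysteine protease inhibitors. Its WT signals were 2881 in root air, 4279 in root ethylene, 4923 in shoot air and 6960.3 in shoot ethylene. Those of mhz7 were 1562, 1414, 2517 and 2759.9, below both WT arrays in the same tissue, which the rule fixed here. The fold was 1.84 and 1.96 in root and shoot air and 3.03 and 2.52 in ethylene. In WT both tissues were brighter in ethylene than in air, and in mhz7 the shoot was a little brighter and the root a little dimmer.

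**Figure D1:**
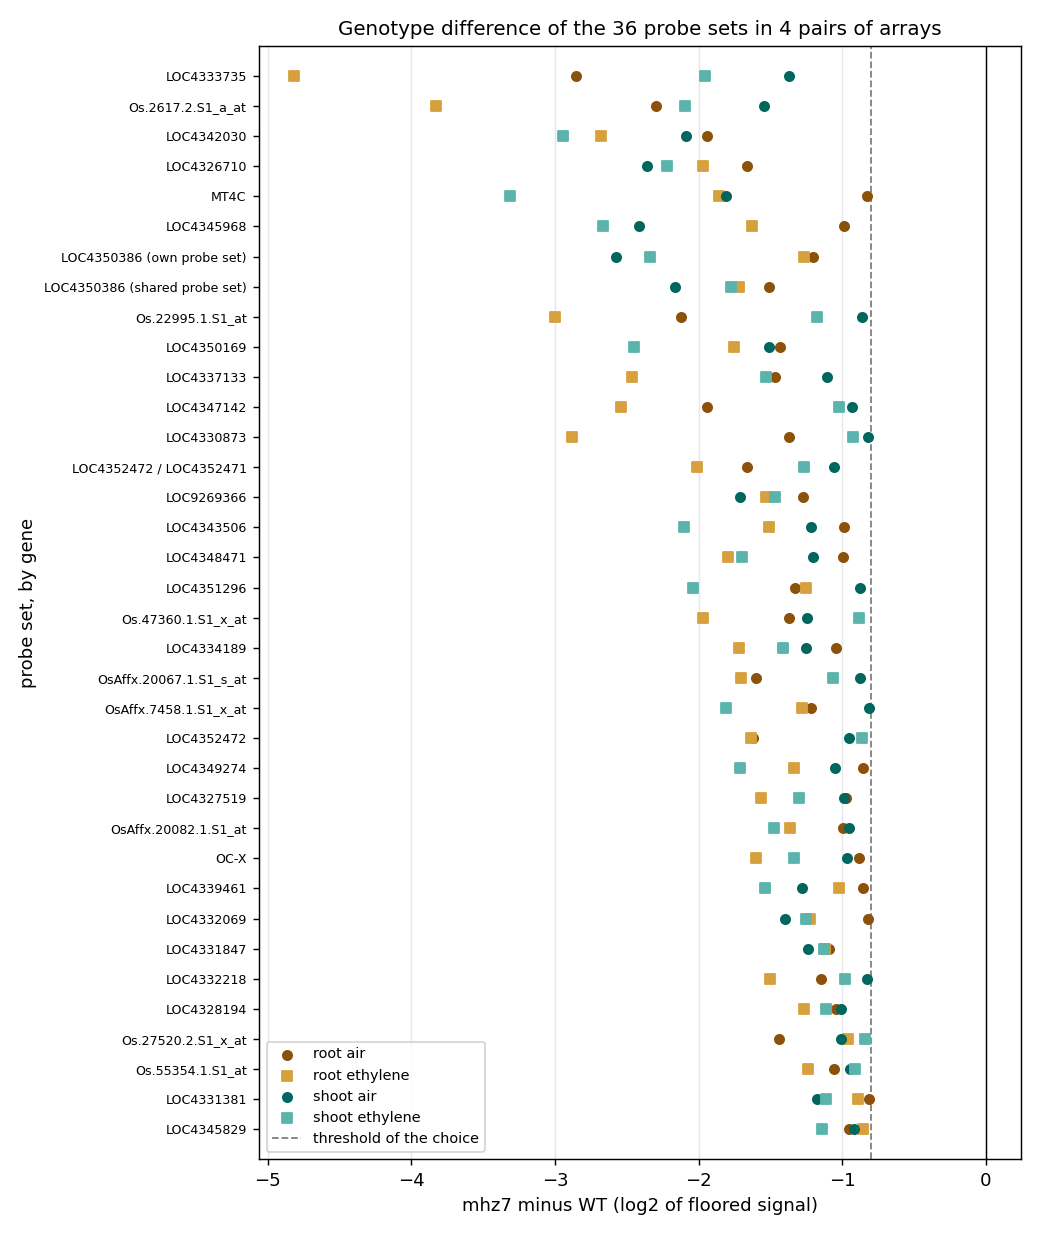
Log2 signal difference (mhz7 minus WT) of the 36 members in each of the 4 pairs of arrays, 1 row per probe set, ordered by the mean of the 4 values, with 1 array per condition and no error bars. All values lie at -0.8 or below because the members were chosen that way, and the root ethylene values reach -4.82.

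By pair, the median difference of the members was -1.21 in root air, -1.61 in root ethylene, -1.14 in shoot air and -1.44 in shoot ethylene. Over all 21444 probe sets the medians were 0.02, 0.00, -0.02 and 0.00. In root air 24 of 36 were at least 2-fold lower (1.53% of all probe sets), in root ethylene 33 (3.93%), in shoot air 23 (1.06%) and in shoot ethylene 30 (1.96%). These counts follow from the selection and are given as description only. Past 4-fold lay 3, 8, 5 and 9 members in the same order (0.191%, 0.919%, 0.117% and 0.359% of all probe sets), and 13 members were 2-fold lower in all 4 pairs (0.117%). The lowest values were -2.86 in root air and -4.82 in root ethylene, both of LOC4333735, -2.58 in shoot air for LOC4350386 and -3.31 in shoot ethylene for MT4C. In mhz7, 0, 2, 1 and 2 members lay at the floor.

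LOC4333735 had the widest mean gap. Its signal was 1718 in WT root air, 2931 in WT root ethylene, 11562 in WT shoot air and 11122 in WT shoot ethylene, against 237, 104, 4468 and 2866 in mhz7. Within each tissue the genotypes did not overlap, which the rule fixed here, and the mutant root in ethylene was close to the floor. The mutant was 7.24-fold lower in root air and 28.2-fold lower in root ethylene, and 2.59- and 3.88-fold lower in shoot. A second probe set of the same gene, with a mean signal of 1642, differed by 0.16, 0.07, -0.04 and 0.05, so the 2 probe sets of this gene did not give the same result.

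Os.2617.2.S1_a_at, which has no gene in the annotation, read 6314 and 7034 in WT root (air, then ethylene) and 2219 and 3086 in WT shoot. In mhz7 it read 1287 and 495 in root and 759.7 and 722 in shoot, so every WT array lay above every mhz7 array. Its fold was 4.91 in root air, 14.2 in root ethylene, 2.92 in shoot air and 4.28 in shoot ethylene. LOC4342030 read 1452, 2463, 3318 and 5327 in the 4 WT groups and 377, 385, 779.6 and 694 in mhz7. For LOC4342030 too, each WT array exceeded each mhz7 array, whatever the tissue or gas. Its fold was 3.85 and 6.40 in root and 4.26 and 7.68 in shoot, the larger of each pair in ethylene.

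LOC4326710 read 421, 601, 867 and 1276 in WT and 133, 154, 169 and 274 in mhz7, again with every WT array above every mhz7 array. This was not particular to the members described that way. It also held for LOC4350169, LOC4351296, LOC4331847, LOC4331381 and LOC4328194, among others. A brighter second probe set of LOC4326710 differed by 0.25, 0.21, -0.07 and -0.24, so here too the gene's probe sets did not give the same result. LOC4350169 read 1401, 1254, 1301 and 1387 in WT, nearly level across tissues and gases, and 518, 372, 456 and 254 in mhz7. Its fold was 2.70, 3.37, 2.85 and 5.46.

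**Figure D2:**
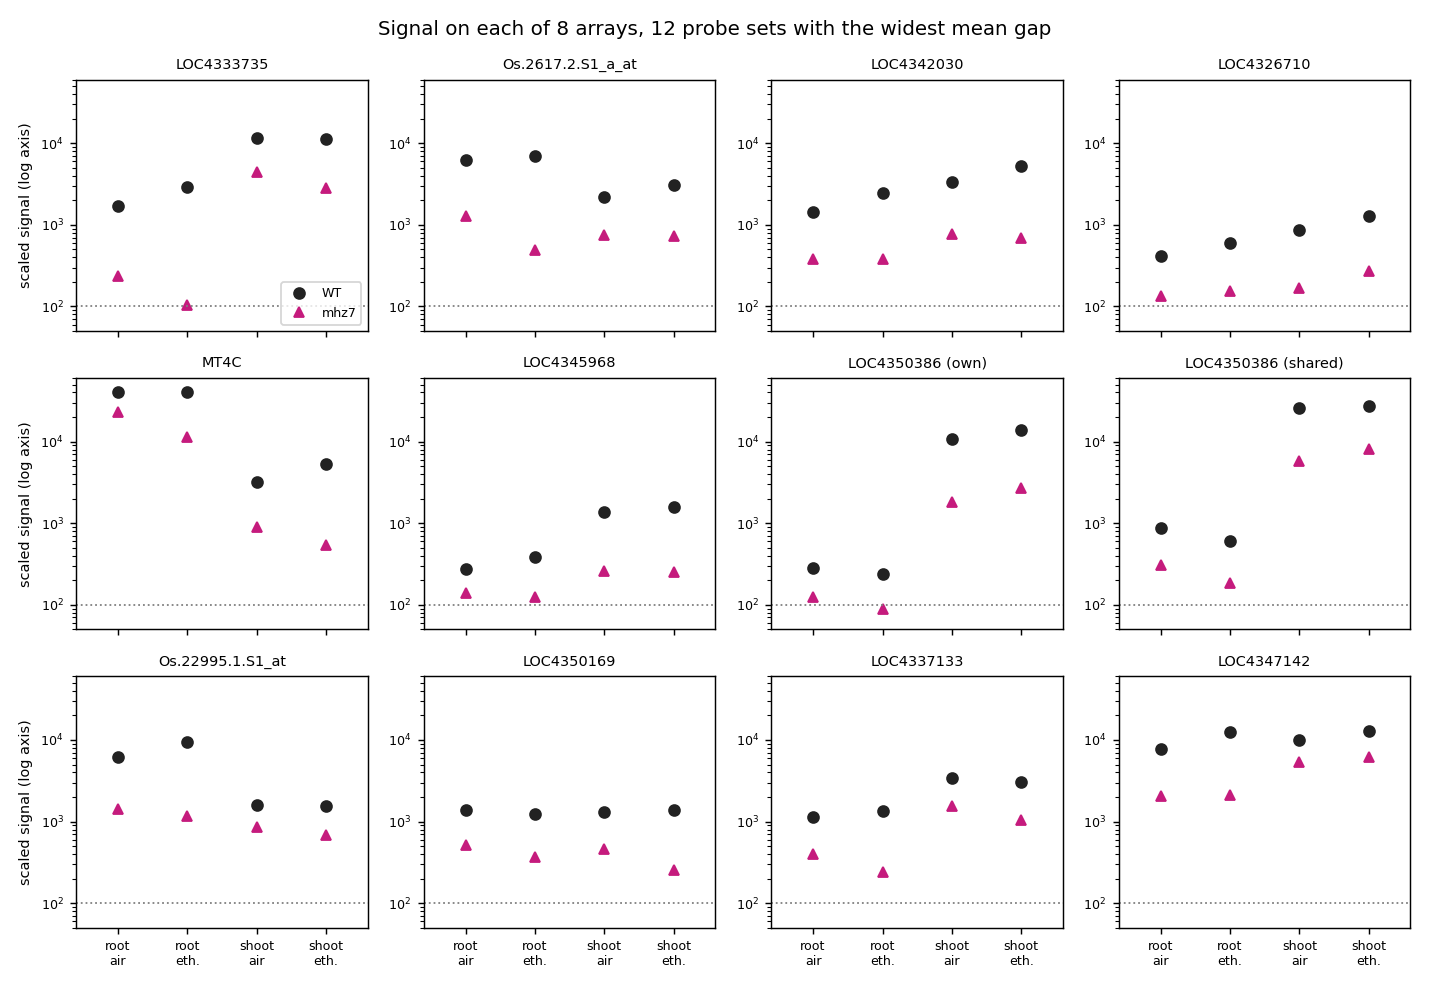
Scaled signal (log axis) of the 12 members with the widest mean gap on each of the 8 arrays, WT and mhz7 side by side for root and shoot in air and ethylene, 1 array per point. All WT points lie above all mhz7 points for LOC4342030, LOC4326710, Os.2617.2.S1_a_at, LOC4345968, Os.22995.1.S1_at, LOC4350169 and LOC4347142. LOC4333735 falls to 104 in mhz7 root in ethylene.

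The gap was wider in root for 17 members and wider in shoot for 19, taking the mean of both gases. A margin of at least 0.5 on the log2 scale separated the tissues for 10 members with the wider gap in root and for 3 with the wider gap in shoot. The rule used these values, so the counts are description only. No share over all probe sets was counted, so a lean of the members to root cannot be read from them. On a different measure, 1.53% of all probe sets were at least 2-fold lower in mhz7 in root air and 1.06% in shoot air. In ethylene these shares were 3.93% in root and 1.96% in shoot. Os.22995.1.S1_at, with a wider root gap, read 6147 and 9362 in WT root and 1414 and 1168 in mhz7 root, but 1581 and 1554 in WT shoot and 870.1 and 686 in mhz7 shoot. Its fold was 4.35 and 8.02 in root and 1.82 and 2.26 in shoot. LOC4347142 read 7839 and 12481 in WT root and 2042 and 2141 in mhz7 root, and 10106 and 12709 in WT shoot against 5303 and 6251 in mhz7 shoot. For LOC4347142 root and shoot were close in the WT, while in the mutant the root signal was 38.5% and 34.2% of the shoot signal.

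LOC4337133 differed by -1.47 and -2.46 in root and by -1.11 and -1.53 in shoot. The probe set shared by LOC4352472 and LOC4352471 differed by -1.66 and -2.01 in root and by -1.06 and -1.27 in shoot, and the probe set of LOC4352472 alone by -1.62 and -1.63 in root and by -0.95 and -0.86 in shoot. Another probe set of LOC4352472, not a member, differed by -1.60, -1.48, -0.60 and -0.93, the same direction in each pair. The 3 members with the wider gap in shoot by that margin were MT4C, LOC4345968 and the probe set specific to LOC4350386. For the last, the mhz7 root ethylene signal lay below the floor, so its root gap in ethylene is the smallest size that the floor allows. Its shoot gap minus root gap was -1.22. The s probe set of LOC4350386, not at the floor, gave -0.35 and did not reach the margin. LOC4345968 read 275 and 388 in WT root and 139 and 126 in mhz7 root, and 1372 and 1592 in WT shoot against 258 and 250.3 in mhz7 shoot. Its fold was 1.98 and 3.09 in root and 5.32 and 6.36 in shoot.

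LOC4350386 was the only gene with 2 member probe sets assigned to it alone, 1 of which has the s suffix. The specific probe set read 10862 and 13799 in WT shoot and 1819.6 and 2733 in mhz7 shoot, and the s probe set read 26147 and 27689 against 5841 and 8093. In root the specific probe set read 286 and 240.1 in WT and 124 and 88.9 in mhz7, and the s probe set 880.1 and 609 against 309 and 185. Both probe sets put the gene far higher in shoot and lower in mhz7 on all 4 pairs. In shoot the fold was 5.97 and 5.05 for the specific probe set and 4.48 and 3.42 for the other. In root it was 2.30 and at least 2.40, and 2.85 and 3.30.

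Of the members, 4 were over 10-fold brighter in shoot (both probe sets of LOC4350386, LOC4330873 and Os.27520.2.S1_x_at) and 1, MT4C, over 10-fold brighter in root. For these the signal on the dimmer tissue's arrays stands beside that of the other tissue's markers. The shoot markers (5 of 6 found, with CAB1R not found by name) summed on the root arrays to 4.74% and 1.90% of their shoot level in WT air and ethylene and, with each marker at the floor or above, to at most 1.26% and 0.543% in mhz7. Below the floor lay 1 of the 5 markers in mhz7 root air and 4 in mhz7 root ethylene, where only RBCS read above it. In mhz7 root the floored sum differed by -2.02 in air and -1.87 in ethylene, which are the smallest sizes that the floor allows. On the shoot arrays it differed by -0.11 and -0.06, with single markers apart: RCABP89 differed by -1.08 and -1.97 and CAB2R by -0.27 and -0.73, while RBCS differed by 0.02 and 0.40. The root signal of the specific LOC4350386 probe set was 2.63% and 1.74% of its shoot signal in WT and 6.84% and 3.25% in mhz7. That of LOC4330873 was 5.03% and 3.36% in WT and 3.42% and 0.868% in mhz7, and that of Os.27520.2.S1_x_at 3.52% and 1.75%, and 2.61% and 1.43%. The mhz7 root ethylene signals of the specific LOC4350386 probe set and of Os.27520.2.S1_x_at, 88.9 and 88.2, lie below the floor, so their shares there are near background. The root share of LOC4350386 was higher in mhz7 than in WT, while those of the marker sum, LOC4330873 and Os.27520.2.S1_x_at were lower in mhz7. The part of shoot transcripts on root arrays in the root differences of these 4 members was not tested. Their shoot differences, between -0.82 and -2.58, come from the brighter tissue.

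LOC4330873 read 22006 and 29359.9 in WT shoot and 12485 and 15425 in mhz7 shoot, and 1107 and 985 in WT root against 427 and 134 in mhz7 root. Os.27520.2.S1_x_at read 10761 and 11105 in WT shoot and 5339 and 6185 in mhz7 shoot, and 378 and 194 in WT root against 139.6 and 88.2 in mhz7 root. Within each tissue neither overlapped between genotypes, which the rule fixed except for Os.27520.2.S1_x_at in root. The other 31 members were within 10-fold between tissues.

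The rule limited the ethylene change in the WT to below 2-fold, and within that limit the members leaned upwards. In WT root 27 of 36 were above 0 with ethylene, with a median of 0.22, and in WT shoot 32, with a median of 0.27. Of all probe sets 56% and 49.8% were above 0, with medians of 0.03 and 0.00. The gap between genotypes was wider in ethylene than in air for 33 members in root, where the median difference of the gaps was -0.36, and for 25 in shoot, where it was -0.21. It was wider for 54.7% of all probe sets in root and 44.9% in shoot. The WT and mhz7 values behind these gaps were used by the rule, so the counts were not tested.

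**Figure D3:**
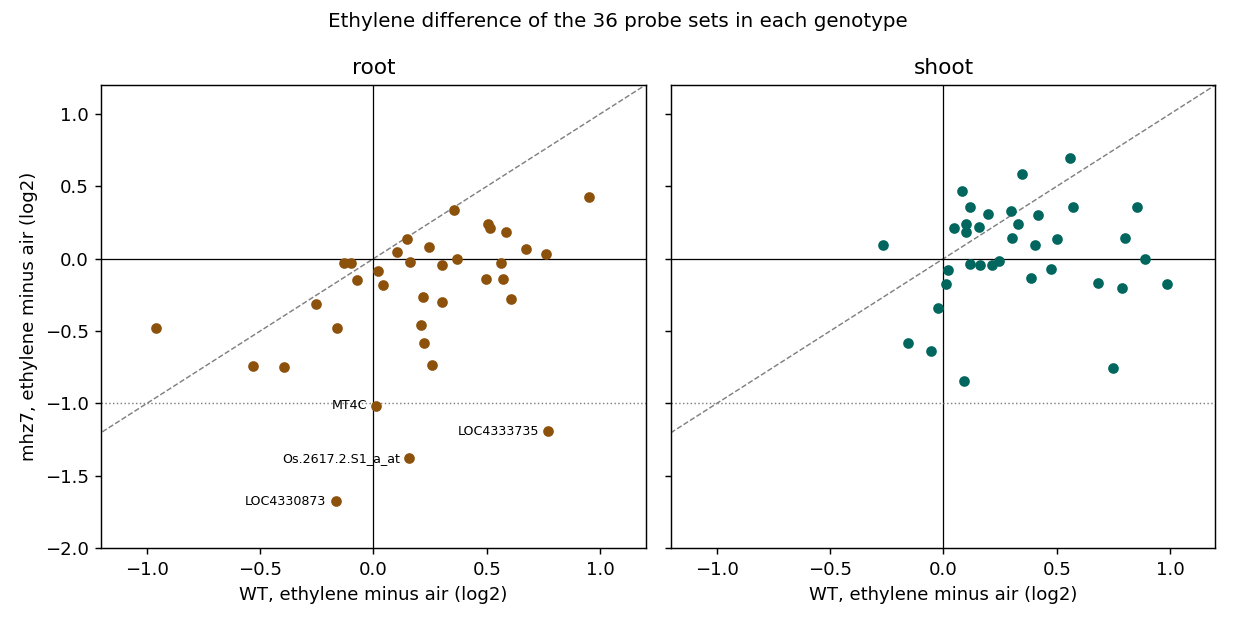
Log2 signal difference between ethylene and air of the 36 members in WT and in mhz7, for root and for shoot, 1 array per condition. WT values lie between -1 and 1 by the rule, and 4 members lie at or below -1 in mhz7 root.

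The rule put no bound on the ethylene change in mhz7, although it used the same mhz7 arrays. In mhz7 root 4 members fell at least 2-fold with ethylene (0.802% of all probe sets fell) and 0 rose (0.261% rose), with 26 of 36 below 0 and a median of -0.14 (0.00 over all). In mhz7 shoot 0 members fell (0.429%) and 0 rose (0.0513%), with 19 above and 16 below 0 and a median of 0.10 (0.02 over all). The 4 that fell in root were LOC4330873 by -1.67, Os.2617.2.S1_a_at by -1.38, LOC4333735 by -1.19 and MT4C by -1.02. The shoot marker sum, with each marker at the floor or above, moved by -1.34 between air and ethylene on the mhz7 root arrays, where most markers reached the floor in ethylene, and by -1.49 on the WT root arrays. LOC4330873 and LOC4333735 are both brighter in shoot than in root, at 3.42% and 5.31% of the shoot signal in mhz7 root air, and the part of shoot transcripts in their falls was not tested. MT4C is brighter in root. Os.2617.2.S1_a_at was brighter in root than in shoot in 3 of the 4 pairs, and dimmer in mhz7 ethylene, with 495 against 722. MT4C differed by -0.76 with ethylene in mhz7 shoot, short of 2-fold, where the floored root marker sum moved by -1.74.

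Tissue was the comparison that the rule did not use. It was fitted over 4 pairs of root and shoot arrays that shared genotype and gas, with limma and Benjamini-Hochberg adjustment over all 21444 probe sets. Of the 36 members 18 were called higher in shoot (25.9% of all probe sets were) and 9 higher in root (41.5%), and 9 were not called. Members had to be bright on all 4 WT arrays, at 174.1 or more, and among the 18460 probe sets that met this 22.0% were higher in shoot and 41.6% higher in root. The median of the members was 0.44 towards shoot, against -0.15 over all and -0.16 over the bright ones, and 27 members differed in 1 direction in all 4 pairs. That was so for 75.3% of all probe sets and 72.7% of the bright ones, so the count of members is near the background.

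Higher in shoot by the limma fit were Os.27520.2.S1_x_at by 5.47 ± 0.206 (log2, SE, n = 4 pairs, adjusted p = 1.85e-05), LOC4345829 by 3.21 ± 0.139 (adjusted p = 2.99e-05) and the s probe set of LOC4350386 by 5.02 ± 0.231 (adjusted p = 3.73e-05). LOC4334189 followed at 1.99 ± 0.110 (adjusted p = 7.08e-05) and the specific probe set of LOC4350386 at 4.93 ± 0.321 (adjusted p = 0.000129). LOC4345829 read 2245 and 3339 in WT shoot and 1185 and 1516 in mhz7 shoot, and 295 and 269.9 against 153 and 149 in root. Every shoot array of LOC4345829 lay above every root array. The genotypes stayed apart within each tissue only, and the rule selected on that gap. OC-X was higher in shoot by 0.78 ± 0.0738 (adjusted p = 0.00048). In LOC4333735 the shoot excess was 3.42 ± 0.503 (adjusted p = 0.00239), the widest error among the members, with its 4 pairs at root shares of 14.9%, 26.4%, 5.31% and 3.63%. LOC4347142 was called at 0.83 ± 0.289 (adjusted p = 0.0495), and not without the WT air pair (0.0732), the mhz7 air pair (0.157) or the mhz7 ethylene pair (0.145).

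Higher in root by the same limma fit were LOC4339461 by -1.63 ± 0.119 (adjusted p = 0.000192), OsAffx.20067.1.S1_s_at by -2.19 ± 0.160 (adjusted p = 0.000195) and LOC4332069 by -1.57 ± 0.115 (adjusted p = 0.000198). LOC4328194 followed at -0.82 ± 0.0617 (adjusted p = 0.000214) and MT4C at -3.92 ± 0.298 (adjusted p = 0.000226). LOC4339461 read 2168 and 2571 in WT root and 1199.9 and 1268 in mhz7 root, and 825 and 977 against 339 and 336 in shoot. OsAffx.20067.1.S1_s_at read 1268 and 1285 in WT root and 418 and 394 in mhz7 root, and 219 and 221 against 119 and 106 in shoot, so ethylene barely moved it in either genotype. Os.22995.1.S1_at, higher in root, was not called without the WT air pair (adjusted p = 0.0611), nor LOC4331381, higher in shoot, without the WT air pair (0.0667) or the mhz7 ethylene pair (0.0632). The 9 members not called were Os.2617.2.S1_a_at, LOC4350169, LOC4343506, LOC4351296, OsAffx.7458.1.S1_x_at, LOC4327519, Os.47360.1.S1_x_at and both probe sets that read LOC4352472. Os.2617.2.S1_a_at was called higher in root without the mhz7 ethylene pair (adjusted p = 0.00568), and Os.47360.1.S1_x_at higher in shoot without the WT ethylene pair (adjusted p = 0.0113).

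Without the pair as a block in the limma fit, 8 of the 18 shoot calls and 4 of the 9 root calls were lost, OC-X (adjusted p = 0.154) and LOC4328194 (0.0983) among them. The other shoot calls lost were LOC4342030 (0.315), LOC4326710 (0.358), LOC4345968 (0.0874), LOC4347142 (0.272), LOC9269366 (0.207), LOC4348471 (0.116) and LOC4331381 (0.331). The other root calls lost were Os.22995.1.S1_at (0.0899), OsAffx.20082.1.S1_at (0.175) and LOC4331847 (0.22).

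**Figure D4:**
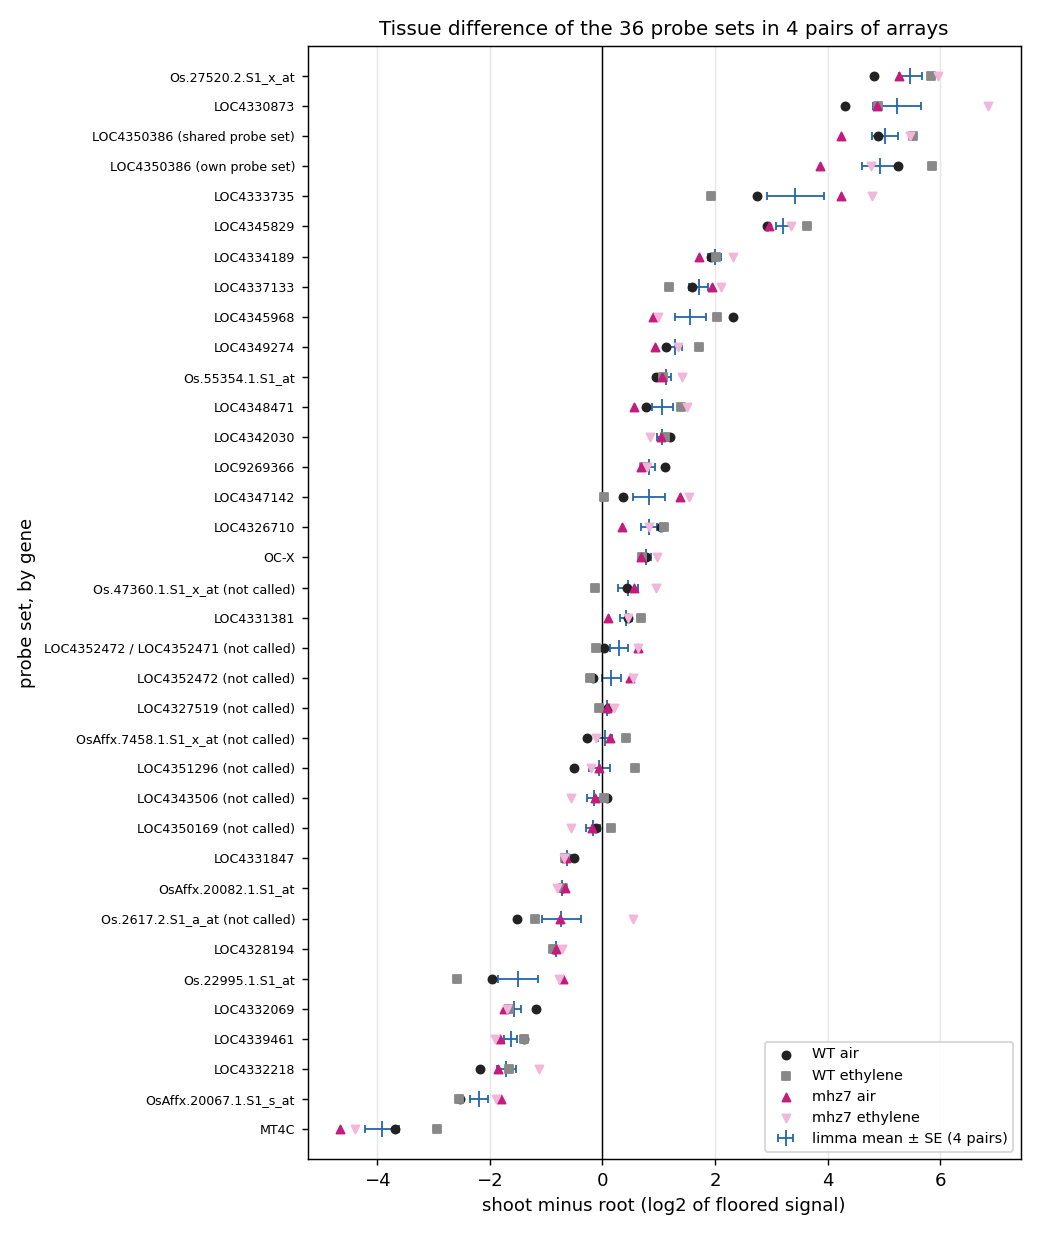
Log2 signal difference between shoot and root of the 36 members, as the limma estimate over 4 pairs with its standard error and the 4 single pairs as points. Positive values are higher in shoot: 18 members are called there and 9 in root, from 5.47 for Os.27520.2.S1_x_at to -3.92 for MT4C.

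The remaining members had smaller mean gaps, and the following show their range. LOC4331847 differed by nearly the same amount everywhere, at -1.10, -1.12, -1.24 and -1.13, from 3223, 4125, 2269.7 and 2598 in WT to 1508, 1899.8, 959.8 and 1190.5 in mhz7. LOC4328194 spanned a somewhat wider range, at -1.04, -1.27, -1.01 and -1.11. LOC4351296 was less even, at -1.33, -1.25, -0.88 and -2.04. LOC4343506 lay near the floor in mhz7, with 218, 422, 232 and 430.0 in WT and 110.2, 148, 76.5 and 88.2 in mhz7, so its shoot folds are at least 2.32 and at least 4.30.

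Among members higher in shoot, LOC4334189 read 984 and 1138 in WT root and 3731 and 4598 in WT shoot, against 477, 346, 1567 and 1727 in mhz7. LOC4349274 read 812, 944, 1781 and 3104 in WT and 448, 373, 859 and 947 in mhz7, with its widest gap in shoot ethylene at -1.71. In both, the genotypes did not overlap within a tissue, which the rule fixed except for LOC4349274 in shoot. LOC4348471 read 353, 412, 603 and 1089 in WT and 177, 118, 262 and 336 in mhz7, every WT array above every mhz7 array, and its gap was wider in ethylene (3.48-fold in root, 3.25-fold in shoot) than in air (1.99- and 2.30-fold). LOC9269366 read 398, 564, 864 and 936 in WT and 165, 195, 264 and 338 in mhz7, also without overlap over the 8 arrays. Os.55354.1.S1_at, with no gene, differed by -1.06, -1.24, -0.95 and -0.91.

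Among members higher in root, LOC4332218 had a lower WT root signal in ethylene than in air, 1757 against 2309.6, and its mhz7 root signals were 1041 and 619. In shoot LOC4332218 read 512 and 556 in WT and 289 and 282 in mhz7. LOC4332069 read 1054 and 1580.0 in WT root and 597 and 677 in mhz7 root, and 467 and 499.8 against 177 and 209.9 in shoot. For both genes WT and mhz7 stayed apart within each tissue, which the rule fixed. OsAffx.20082.1.S1_at, with no gene, read 213 and 277 in WT shoot and 109.9 and 97.9 in mhz7 shoot, near the floor, and differed by -1.37 in root ethylene. LOC4327519 was nearly level between tissues, at 537, 791, 571 and 755 in WT and 273, 268, 288 and 307 in mhz7, and its WT and mhz7 signals did not overlap over the 8 arrays.

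Just inside the threshold, the pair closest to 0 stood at -0.81 for LOC4331381, -0.82 for OsAffx.7458.1.S1_x_at, LOC4330873 and LOC4332069, and -0.83 for LOC4332218. Just outside it stood LOC9270481 at -0.80 (above the threshold before rounding), LOC4331362 at -0.79, Os.11307.1.S1_at and Os.39505.1.S1_at at -0.78, and LOC4342065 at -0.77. LOC9270481 differed by -1.02, -3.91, -0.89 and -0.80, and LOC4331362 by -1.14, -0.79, -3.08 and -2.97, so probe sets with wide gaps in other pairs lie on the far side of the line.

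Other probe sets of the member genes numbered 10, of which 7, in 7 genes, had a mean signal of at least 200. Of these, 4 were below 0 in all 4 pairs: those of LOC4339461 (-0.58, -0.75, -1.48 and -1.65), LOC4328194 (-0.96, -0.62, -0.60 and -0.55), LOC4348471 (-0.42, -1.70, -0.43 and -1.17) and LOC4352472. The second probe set of LOC9269366 differed by -0.46, -0.12, 0.01 and 0.02, and those of LOC4333735 and LOC4326710 are given with their genes. The 25 member genes with a measured neighbour within 2 places in the gene table had 50 such neighbours. None of these, 0 of 50, was lower by 0.8 or more in all 4 pairs or was itself a member. Over all 13754 measured genes only 36 passed that threshold, so the 0 is near the background. Below 0 in all 4 were 11 neighbours. No share over all genes was counted, so this number does not show lower signals around the members. Among these 11, LOC4343507, next to LOC4343506, differed by -0.61, -1.82, -0.70 and -2.85. LOC4328193, next to LOC4328194, differed by -1.18, -1.51, -0.51 and -0.72. The median of the 50 neighbours' mean differences was -0.03.

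Over 14 lists of pathway genes chosen by symbol, 486 genes were measured and 0 were members. Since the rule leaves out named families and nearly all member genes carry only a locus number, a list by symbol could hold few members, and the 0 does not show which pathways the members belong to. The lists held 8 genes of ethylene signalling, 6 ERF and DREB factors, 10 genes of fermentation and low oxygen, 13 of nitrogen uptake and assimilation, 49 of auxin, 26 of cytokinin and 32 expansins and wall enzymes. They also held 27 heat shock proteins and chaperones, 43 peroxidases and antioxidant enzymes, 53 transporters, 75 kinases and calcium signalling genes, 22 cytochromes P450, 120 MYB, bHLH, bZIP and homeobox factors and 49 seed and grain trait genes. In these lists 0 genes were 2-fold lower in all 4 pairs, and 2, CML31 and BHLH148, were 2-fold higher. Over all 13754 measured genes 17 were 2-fold lower and 52 were 2-fold higher in all 4. At 0.8 or more, 2 listed genes were lower in all 4, of 36 among all genes: NSHB2, a non-symbiotic haemoglobin, and ETR2, an ethylene receptor, both left out by the rule. The lists' median mean differences ran from -0.24 (ethylene signalling) to 0.18 (ERF and DREB factors), against 0.00 over all genes.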

How the data were processed

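RNA from rice roots and shoots was measured on 8 Affymetrix arrays, from 5 µg of total RNA per sample, per the labels' protocols. The deposited values are intensity values on a linear scale, made with MAS5 per the submitters' processing notes. The version of MAS5, its scaling target and the detection calls are not stated there. Deposited medians were 42.9 to 44.6. After 123 control probe sets were set aside from 57381, each array was multiplied by 2.00 to 2.10 to bring its mean without the top and bottom 2% to 500, floored at 100 and taken to log2. A count of ethylene changes needed a difference of at least 1 and a higher signal of at least 200. The tissue fit used limma 3.58.1 in R 4.3.3 with the pair as a block, 3 residual degrees of freedom and an adjusted p under 0.05, and was tested on simulated data. Its pairs come from the design, and arrays are single, so p-values measure only the spread between these pairs. The number of arrays limits the precision. Python 3.11.15 (numpy 2.4.6, pandas 2.3.3, matplotlib 3.10.9) gave the other values.

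The array gene table gave 1 gene to 22436 probe sets. Gene symbols and neighbours were taken from the ASM3414082v1 gene table, without its coordinates. The brightest probe set stood for a gene in the lists. Members and lists were chosen with earlier results of these data known. Named were members with a gene name, the 12 widest mean gaps, the 5 probe sets on each side of the threshold, the 5 smallest adjusted p in each direction of tissue, members changed 2-fold by ethylene in mhz7, those with the widest tissue contrast of the gap, genes with several member probe sets, and EIN2. A few further members, and the metallothionein genes, were chosen after their values were seen. Alternatives were other floors, scalings, signal minimums and thresholds, 1 probe set per gene, no block and each pair left out. Leaving out members over 10-fold brighter in 1 tissue was chosen after seeing the data. Promoter motifs were not analysed here.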

Additional observations from a re-analysis of the deposited data

Results flagged for a closer look

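For 7 of the 36 members (19.4%) ethylene moved the signal up in both WT tissues and down in both mhz7 tissues. Opposite directions between genotypes held for 9.94% of all probe sets, a share not split by which genotype rose. The rule used these arrays, and the difference between genotypes was not tested. Some of the changes are close to 0, such as 0.0123 for OsAffx.20067.1.S1_s_at in WT shoot and -0.0017 for OsAffx.20082.1.S1_at in mhz7 root. The mean over root and shoot of the ethylene change in mhz7 minus that in WT was -1.27 for MT4C, with changes of 0.01 and 0.75 in WT root and shoot and -1.02 and -0.76 in mhz7. It was -1.04 for Os.2617.2.S1_a_at, with 0.16 and 0.48 in WT and -1.38 and -0.07 in mhz7. It was -0.45 for LOC4345968, -0.44 for OsAffx.20082.1.S1_at and -0.28 for the probe set shared by LOC4352472 and LOC4352471. LOC4328194 stood at -0.16 and OsAffx.20067.1.S1_s_at at -0.14, each with WT changes of 0.04 or less.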

How the results depend on the processing

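The count of 36 members became 13 with a 2-fold threshold and 23 with 1 probe set per gene, and lay between 26 and 44 under the other floors, scalings and signal minimums. With a floor of 200 the median differences were -1.04 in root air, -1.50 in root ethylene and -1.32 in shoot ethylene. Without the pair as a block 10 members were called higher in shoot and 5 in root. Leaving out each pair in turn gave 16 to 19 and 8 to 10. In mhz7 root 7 members fell with ethylene at 1.5-fold, 1 at 3-fold and 2 without the members over 10-fold brighter in 1 tissue. In mhz7 shoot 3 fell and 2 rose at 1.5-fold. The tissue difference changed sign for LOC4343506 (0.0287 with a floor of 200), and with single pairs left out for LOC4351296 (-0.262 to 0.0991) and OsAffx.7458.1.S1_x_at (-0.0819 to 0.1464), none of them called. The cause was not tested. Of 80 alternative counts and medians 68 stayed within the tolerance (1.5-fold for counts, 0.1 for medians), and of 392 tissue differences of single members 360 kept their direction and call, while 27 lost and 2 gained a call. The pairs of the tissue fit come from the design, since the labels carry no replicate numbers. The floor and single arrays limit what dim probe sets can show.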
